A study of Drosophila melanogaster with 6 samples.

Results

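The genes described here encode the proteins of the mitochondrial ribosome of Drosophila melanogaster. They were taken by name, as every row of the authors' deposited gene table whose symbol starts with mRpL or mRpS and a number. This gave 73 of the 14862 genes in that table, of which 47 are named for the large subunit and 26 for the small subunit. The rule uses names and no measured value.

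The series compared embryos from InR-DN oocytes with embryos from oocytes expressing green fluorescent protein (GFP), the control. InR-DN is a dominant-negative form of the insulin receptor, which blocks signalling by the normal protein. Each group has 3 samples, and RNA was pooled from 200 embryos per sample, labelled as 16 to 20 h old and laid by flies kept on standard food with yeast paste. The labels used here name no driver of the transgenes and no fly strain, and whether each of the 3 came from its own cross is not stated there. The p-values therefore measure the spread between libraries, which may be technical. Libraries were made from bulk RNA, in which a smaller share of cells of a type and less RNA per cell cannot be told apart.

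Mitochondria carry their own ribosomes, which translate the few membrane proteins encoded by mitochondrial DNA, all of them core subunits of the respiratory chain and the ATP synthase. The proteins of these ribosomes are encoded in the nucleus, made in the cytosol and imported. Some descend from bacterial ribosomal proteins, and others were added in mitochondria. The large subunit holds the peptidyl transferase centre, where peptide bonds form, and the tunnel through which the new chain leaves. The small subunit binds the messenger RNA and decodes it. In Drosophila, mitochondria are inherited through the oocyte, and mutations of the small-subunit gene tko (technical knockout) give bang-sensitive flies with weak mitochondrial translation.

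The table holds 1 comparison. It gives each gene a log2 fold change, an average in log2 counts per 1000000 reads (CPM) and the statistic and p-values of a likelihood ratio test, without values for single samples. No source used here names the numerator of the fold change. A gene is therefore called positive or negative by its sign, and no direction between InR-DN and GFP embryos is read from it. Genes with a single read take 12 distinct average levels in the table. Of these levels, 3 go with a positive fold change, 3 with a negative one and 6 with a fold change of 0. The averages thus cover 12 libraries, 6 of which took no part in the comparison. With edgeR's usual prior count of 2, these levels correspond to a mean effective library size of 28.9, in units of 1000000 reads. Sizes of single libraries are not given here. Of 14 late-embryo genes listed, 11 were found, with a median average of 0.424 CPM per the authors' deposited table. The 14 ovary and eggshell genes listed had a median average of 1294 CPM there, and all 14 had a positive log2 fold change, with a median of 0.27 and 0 called; their part in the results below was not tested. Osi7 and TwdlM, cuticle genes of the late embryo, were at 0.0895 and 0.0719 CPM per the authors' deposited table, close to the lowest average of any row, and had a fold change of exactly 0. Among genes with a single read, a fold change of 0 marked the libraries that were not compared. The averages of Osi7 and TwdlM may therefore hold no reads of the compared embryos. Osi19, of the same family as Osi7, was at 7.98 CPM per the authors' deposited table, so genes listed for the labelled age differed widely in level. The embryo markers elav (131 CPM, neurons) and Act57B (27.2 CPM, muscle) were the highest of the 11 found, per the authors' deposited table. Other neuron genes of that list were far lower there, nSyb at 0.424 CPM and Syt1 at 0.167 CPM. So were the muscle genes Mhc at 3.19 CPM and Mlp84B at 2.39 CPM. These averages include the 6 libraries that were not compared, and their part in the levels given here was not tested.

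None of the 73 genes passed the test between InR-DN and GFP embryos. The count was 0 of 73 at an adjusted p of 0.05 in edgeR's likelihood ratio test (Benjamini-Hochberg), beside 4.49% of all genes, per the authors' deposited table. All 73 averaged 16 CPM or more, and of the 6398 genes at that level 1.38% were called. At an unadjusted edgeR p under 0.05 the count was also 0 of 73, beside 3.66% of the genes at that level, and under 0.1 it was 0 of 73, beside 5.39%. The smallest unadjusted p of any member was 0.129 per the authors' deposited table, for mRpL54, with an adjusted edgeR p of 0.803.

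The fold changes were small and lay on both sides of 0. They ran from -0.33 to 0.29 on the log2 scale per the authors' deposited table, with a median of -0.04. The median over all genes was 0.00 there, and over genes of 16 CPM or more it was 0.02. By sign, 44 members were negative and 29 positive, so 60.3% were negative, against 42.7% of the other genes of 16 CPM or more. The median size of the change without its sign was 0.09 for the members and 0.09 for the other genes at that level. A fold change larger in size than that of any member was found in 548 of those 6325 genes (8.66%). That cut is the members' own largest size, so by construction no member lies beyond it. The middle of the members was close to that of well expressed genes.

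**Figure D1:**
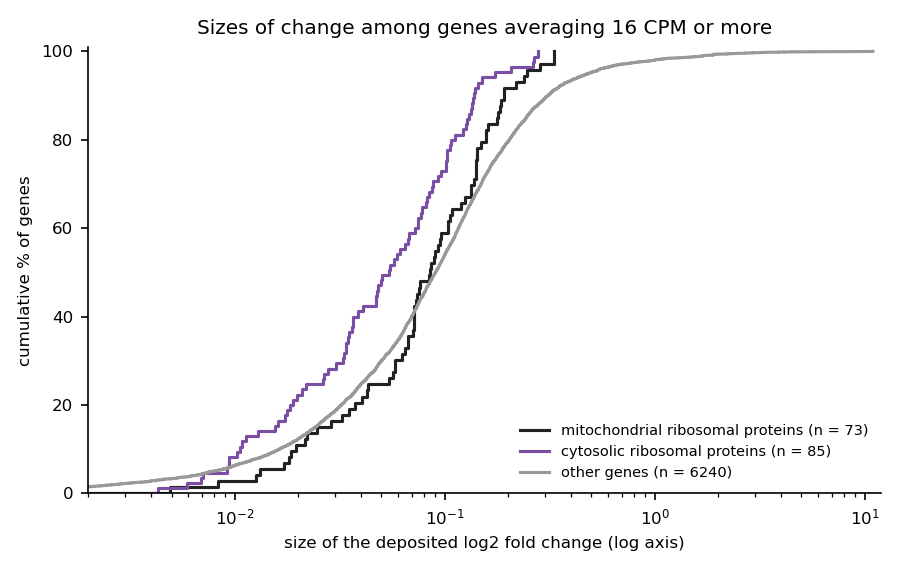
Cumulative percentage of genes (vertical axis) against the size of the deposited log2 fold change without its sign (horizontal log axis), for the 73 mitochondrial ribosomal protein genes, 85 cytosolic ribosomal protein genes and 6240 other genes, all averaging 16 CPM or more. The curve for the mitochondrial ribosome runs close to that of the other genes around its median of 0.09 and ends at 0.33, while the other genes extend to 10.96.

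The error of each fold change was taken as its size divided by the root of its likelihood ratio statistic, called the implied SE here and printed after ± in the text. It rests on the spread among all libraries in the authors' fit. The members' implied SE ran from 0.18 for mRpS30 to 0.59 for mRpL55, with a median of 0.35. The median likelihood ratio statistic was 0.08 for the members and 0.13 for all genes of 16 CPM or more. Their median unadjusted edgeR p was 0.773 and 0.715. A change smaller than its implied SE was thus common among well expressed genes and is not particular to the members. An approximate 95% interval, from the normal quantile times the implied SE, included 0 for all 73. By construction this restates that none of them had an unadjusted edgeR p under 0.05. The interval lay within a 2-fold change in both directions for 59 members and within a 1.5-fold change for 16. For the other 14 a 2-fold difference was within the interval, and the outermost bounds were -1.38 for mRpL27 and 1.30 for mRpL49, both on the log2 scale. The largest unadjusted p that was still called per the authors' deposited table was 2.21e-03. At that p, a call would have taken a log2 change of 0.55 in mRpS30 and of 1.80 in mRpL55, with a median of 1.07 over the members. An estimated 2-fold change would have been called in 32 of the 73 members and not in the other 41. Estimates vary around the true change, so a true 2-fold change could have gone uncalled in the 32 as well.

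**Figure D2:**
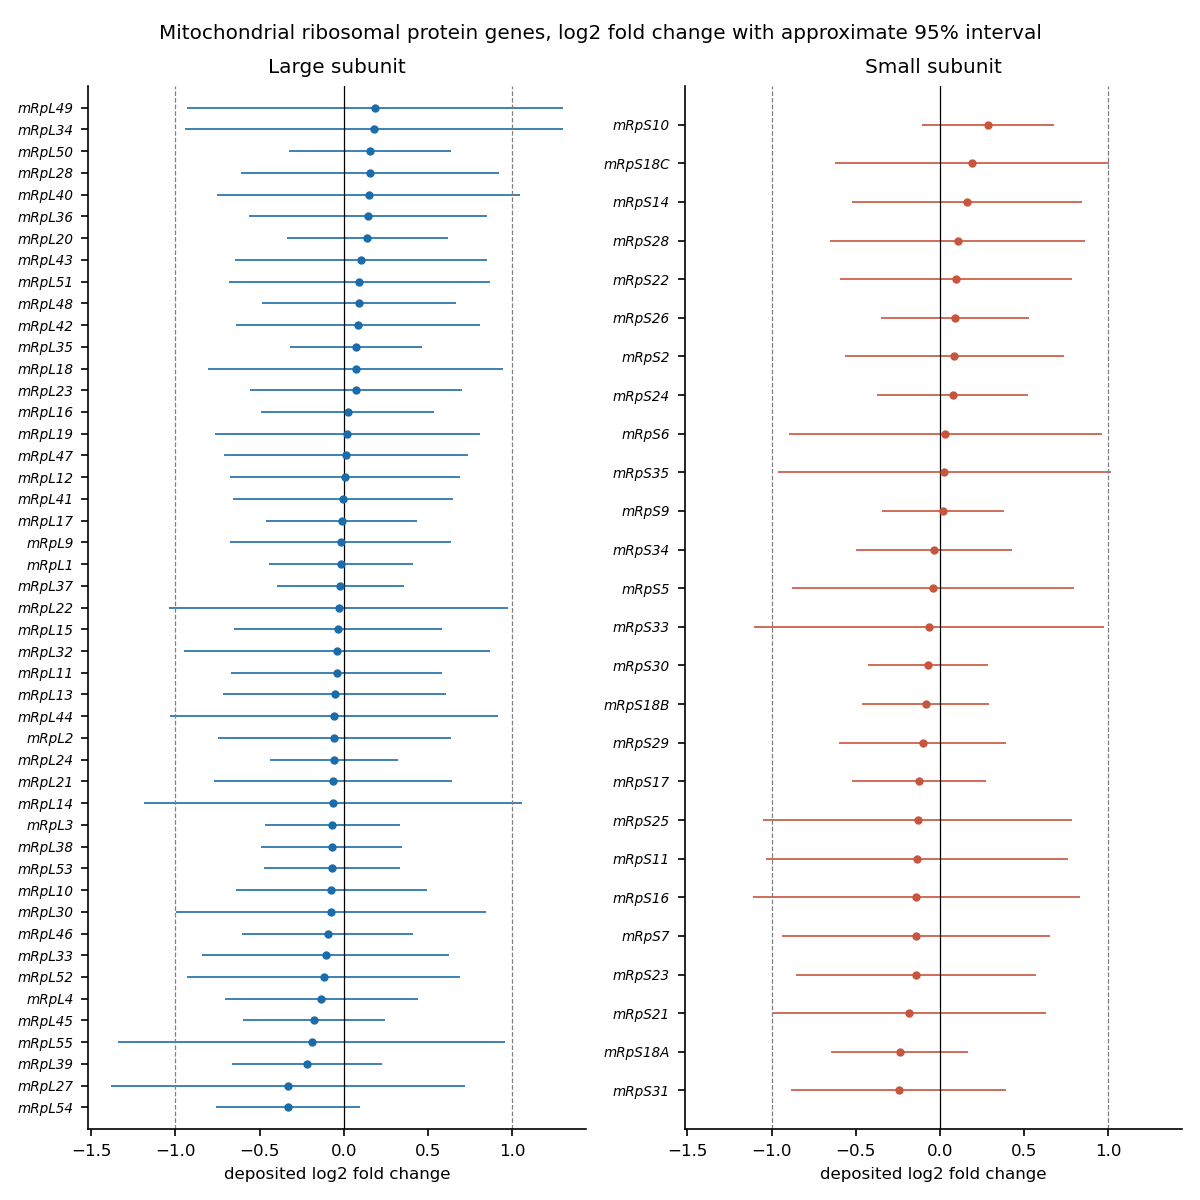
Deposited log2 fold change of each member (horizontal axis, points) with its approximate 95% interval from the implied SE (bars), large subunit on the left (47 genes) and small subunit on the right (26 genes), sorted by value. All bars cross 0, and the dashed lines mark 2-fold changes, which 14 of the bars reach.

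Large and small subunit had close medians and no call in either. The large-subunit genes had a median log2 change of -0.03 per the authors' deposited table, with 29 negative and 18 positive. The small-subunit genes had a median of -0.05 there, with 15 negative and 11 positive. The medians differed by 0.03, and that difference was not tested. Large-subunit values ran from -0.33 to 0.18 and small-subunit values from -0.25 to 0.29, so the ranges overlapped over most of their width. In structures of mammalian mitochondrial ribosomes, the counterparts of mRpS18A and mRpS30 sit in the large subunit despite their names. With these genes moved, the medians were -0.04 in the large and -0.04 in the small subunit. No test was made over the members, which are not replicates of a condition.

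At the stalks of the large subunit, which guide translation factors and spent tRNA, no member had a value larger than its error. mRpL12, the protein of the factor-binding stalk that in mammals also binds the mitochondrial RNA polymerase, had a log2 change of 0.01 ± 0.35 at an average of 70.6 CPM per the authors' deposited table. Its anchor mRpL10 had -0.07 ± 0.29 at 42.7 CPM there. The stalk-base protein mRpL11 had -0.04 ± 0.32 at 31.3 CPM per the authors' deposited table. mRpL1 forms the other stalk, past which tRNA leaves. It had -0.02 ± 0.22 at 56.1 CPM per the authors' deposited table.

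Around the peptidyl transferase centre, 3 of the 4 members listed were negative and 1 was positive. mRpL4 had -0.13 ± 0.29, mRpL3 had -0.07 ± 0.20 and mRpL2 had -0.06 ± 0.35 per the authors' deposited table. mRpL16, which lines the site where incoming tRNA is accommodated, had 0.02 ± 0.26 there. Each of these values is smaller than its own error.

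At the tunnel exit, where the nascent protein meets the inner membrane, values were also smaller than their errors. mRpL45, which in mammals ties the ribosome to the membrane, had the largest value of the 6 listed, -0.18 ± 0.21 at 40.6 CPM per the authors' deposited table. The ring of proteins around the opening had 0.07 ± 0.32 for mRpL23, -0.06 ± 0.19 for mRpL24, -0.03 ± 0.51 for mRpL22, -0.01 ± 0.23 for mRpL17 and 0.01 ± 0.37 for mRpL47 there. Of these, mRpL24 had the smallest error and mRpL22 the largest.

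The central protuberance, the crest of the large subunit that faces the small one, held the member with the lowest lower bound. mRpL27, whose bacterial counterpart reaches toward the tRNA ends, had -0.33 ± 0.54 at 42.9 CPM per the authors' deposited table, so its value was less than its error. The other 5 of the 6 listed were mRpL40 at 0.15 ± 0.46, mRpL46 at -0.09 ± 0.26, mRpL48 at 0.09 ± 0.29, mRpL38 at -0.07 ± 0.21 and mRpL18 at 0.07 ± 0.45, per the authors' deposited table. Their signs were split, 3 positive and 3 negative with mRpL27 included.

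Among the other large-subunit proteins, the one closest to a call was mRpL54, a mitochondrial addition without a bacterial counterpart. It had a log2 change of -0.33 ± 0.22 at 20.8 CPM per the authors' deposited table. mRpL39, which is related to a tRNA synthetase in mammals, had -0.22 ± 0.23 there, and mRpL55 had -0.19 ± 0.59. On the positive side, mRpL49 had 0.18 ± 0.57, mRpL34 had 0.18 ± 0.57, mRpL50 had 0.16 ± 0.25 and mRpL28 had 0.16 ± 0.39 per the authors' deposited table. Only mRpL54 exceeded its implied SE among the 47 large-subunit genes. For mRpL53, at -0.07 ± 0.21 and 65.1 CPM, the value is uncertain: CG33155, annotated on the same strand over the same stretch, had -0.07 and 65.4 CPM per the authors' deposited table, so the rows may hold the same reads.

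In the small subunit the extremes were mRpS10 on the positive and mRpS31 on the negative side. mRpS10, a protein of the head of the subunit, had a log2 change of 0.29 ± 0.20 at 55.8 CPM per the authors' deposited table, with an unadjusted p of 0.155 and an adjusted edgeR p of 0.864. mRpS31, which has no bacterial counterpart, had -0.25 ± 0.33 there. mRpS10 and mRpS18A, but no other small-subunit gene, exceeded their implied SE.

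None of the small-subunit genes named next had a value larger than its error. Some encode proteins close to the messenger RNA or in the head of the subunit, and the others are given without a place. mRpS5, which lies where the messenger enters, had -0.04 ± 0.43 per the authors' deposited table. mRpS2 had 0.08 ± 0.33 and mRpS24, the counterpart of the bacterial protein at the messenger entry, had 0.08 ± 0.23 there. In the head of the subunit, mRpS7 had -0.14 ± 0.41, mRpS9 had 0.02 ± 0.19 and mRpS14 had 0.16 ± 0.35 per the authors' deposited table. mRpS29, the GTP-binding protein known in mammals as DAP3, had -0.10 ± 0.25, and mRpS17 and mRpS21 had -0.12 ± 0.20 and -0.18 ± 0.41. mRpS23, a protein without a bacterial counterpart, had -0.14 ± 0.36 and mRpS28 had 0.11 ± 0.39 per the authors' deposited table.

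The S18 family is represented by 3 paralogs, of which mammalian structures place 1 in the large subunit. mRpS18A, the one placed in the large subunit, had -0.24 ± 0.21 at 44.5 CPM per the authors' deposited table. mRpS18B had -0.09 ± 0.19 at 30.1 CPM, and mRpS18C, the counterpart of the bacterial protein, had 0.19 ± 0.42 at 20.3 CPM there. Their signs differ, but none passed the threshold and the difference between them was not tested. mRpS30, the other protein placed in the large subunit in mammals, had -0.07 ± 0.18 at 92.7 CPM per the authors' deposited table.

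Of the mitochondrial ribosomal protein genes that carry other symbols, the 3 described here also had values smaller than their errors. tko, which encodes the decoding-centre protein S12, had -0.04 ± 0.53 at 51.6 CPM per the authors' deposited table. bonsai, the S15 gene, had -0.01 ± 0.45 at 77.5 CPM there. CG4866, which RefSeq lists with mRpS4 as a synonym, had -0.13 ± 0.30 at 44.1 CPM per the authors' deposited table. All 3 values lie within the range of the named members.

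Neither origin, bacterial or mitochondrial, held a called gene. The 29 large-subunit genes with a bacterial counterpart had a median log2 change of -0.03 and the 17 without one had -0.02 per the authors' deposited table. In the small subunit the 14 with a counterpart had a median of 0.02 and the 10 without had -0.07 there. mRpL55, mRpS18A and mRpS18B were left out of this split because their origin is less clear. The differences between these medians were not tested.

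Levels differed widely between members. Averages over the 12 libraries ran from 18.1 CPM for mRpL48 to 260 CPM for mRpS5 per the authors' deposited table, with a median of 39.8 CPM. Divided by the coding length in the Ensembl annotation, they ran from 31.6 CPM per kb for mRpL38 to 213 CPM per kb for mRpS5. The middle of the members was narrower, between 48.9 and 83.7 CPM per kb at the quartiles. These levels have no error, since the table holds no value per sample, and neighbours in this order cannot be told apart.

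mRpS5 stood above the rest in level, at 213 CPM per kb. Next came mRpS7 (164 CPM per kb), mRpL30 (163 CPM per kb), mRpL33 (155 CPM per kb) and mRpS21 (145 CPM per kb). The 3 lowest of the large subunit were mRpL38 (31.6 CPM per kb), which belongs to the central protuberance, mRpL48 (33.4 CPM per kb) and mRpL3 (34.7 CPM per kb). The 3 lowest of the small subunit were mRpS29 (34.1 CPM per kb), mRpS31 (36.7 CPM per kb) and mRpS2 (40.4 CPM per kb). mRpL53 was at 140 CPM per kb, with the doubt over its reads given above. mRpL12, whose bacterial counterpart is present in several copies per ribosome while most proteins are single, was at 129 CPM per kb.

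Per length the subunits were level, at a median of 57.5 CPM per kb for the large and 57.9 CPM per kb for the small subunit. Genes with a bacterial counterpart had higher medians than those without. In the large subunit these were 59.0 and 46.4 CPM per kb, and in the small subunit 81.1 and 50.8 CPM per kb. The classes overlapped in both subunits, and the difference was not tested. In the small subunit the genes with a counterpart were also shorter, with a median coding length of 507 bases against 826 bases without one. In the large subunit the lengths were 588 and 567 bases.

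**Figure D3:**
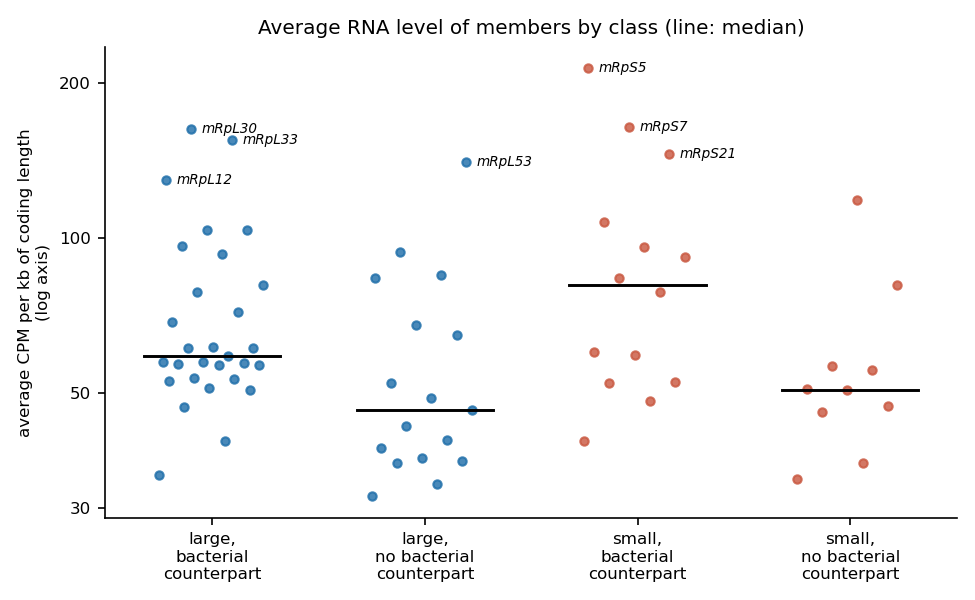
Average level of each member per kb of coding length (vertical log axis, from the deposited average CPM over 12 libraries) by subunit and by whether a bacterial counterpart is known, with a line at each median. Points above 120 CPM per kb are named, mRpS5 is the highest at 213 CPM per kb, and the 4 classes overlap. mRpL55, mRpS18A and mRpS18B are not drawn.

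The rest of the mitochondrial translation apparatus was described from lists chosen by function. Of 10 genes found from the list of translation factors, 0 were called and 0 were under an unadjusted edgeR p of 0.05. Their median log2 fold change was -0.01 per the authors' deposited table. The largest value was -0.31 ± 0.24 for CG4679, and it was above its error. The annotation used here gives CG4679 no named role, so its place among the translation factors is not shown. EF-G2, matched to the recycling factor mRRF2, had -0.19 ± 0.23 per the authors' deposited table. EfTuM, the elongation factor that brings tRNA to the ribosome, was the most abundant per length at 85.0 CPM per kb and had -0.04 ± 0.25 per the authors' deposited table.

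Mitochondrial tRNA synthetases gave the same picture, with 0 of 16 called, 0 under an unadjusted edgeR p of 0.05 and a median of 0.03 per the authors' deposited table. Slimp, a paralog of the seryl-tRNA synthetase without known aminoacylating activity, had 0.30 ± 0.20, and CG7441, matched to the tryptophanyl-tRNA synthetase, had -0.22 ± 0.21 there. They were scarcer per length than the ribosomal proteins, at a median of 9.86 CPM per kb against 57.5 CPM per kb for the members. Of 13 genes for mitochondrial transcription, DNA upkeep and RNA stability, 0 were called and 0 were under an unadjusted edgeR p of 0.05. Over all genes, 4.49% were called and 1488 of 14862 had an unadjusted edgeR p under 0.05, per the authors' deposited table. The lists of translation factors, synthetases and transcription genes each hold genes under 16 CPM, so shares at that level are not set beside them. Whether their counts differ from those over all genes was not tested. CG33714, matched to SLIRP1, had 0.28 ± 0.19 and DNApol-gamma35, a subunit of the mitochondrial DNA polymerase, had 0.29 ± 0.23 per the authors' deposited table.

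Cytosolic ribosomal proteins, which translate nuclear messages, gave a contrast in level and in error. At 16 CPM or more there were 85 of them, with a median of 3336 CPM per kb against 57.5 CPM per kb for the mitochondrial set. Of these 0 were called and 0 were under an unadjusted edgeR p of 0.05, beside 1.38% and 3.66% of genes at that level. Their median log2 fold change was 0.04, with 23 negative and 62 positive, against -0.04 with 44 negative and 29 positive for the mitochondrial set per the authors' deposited table. The medians thus had opposite signs, with 27.1% of the cytosolic and 60.3% of the mitochondrial set negative. The other genes of 16 CPM or more had a median of 0.02, with 42.7% negative. The cytosolic median size of change was 0.05 against a median implied SE of 0.50. Genes share the same libraries, so their signs are not independent, and the difference between the sets was not tested.

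Both kinds of ribosomal protein gene had mostly larger errors than the median well expressed gene. The implied SE exceeded the median of genes of 16 CPM or more, 0.23, in 54 of 73 mitochondrial members. It did so in 83 of the 85 cytosolic ones, whose median implied SE was 0.50. Among the members, short genes had larger errors: for the 41 with a coding length under 600 bases the median implied SE was 0.37, against 0.30 for the 32 longer ones. Spearman's rho between implied SE and coding length was -0.34 across the 73 members, -0.37 across the large-subunit and -0.34 across the small-subunit genes. Across the 6190 other coding genes of 16 CPM or more it was -0.20. These are descriptions across genes that share the same libraries, and genes are not independent replicates. Between implied SE and average level, rho was -0.02 among the members.

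**Figure D4:**
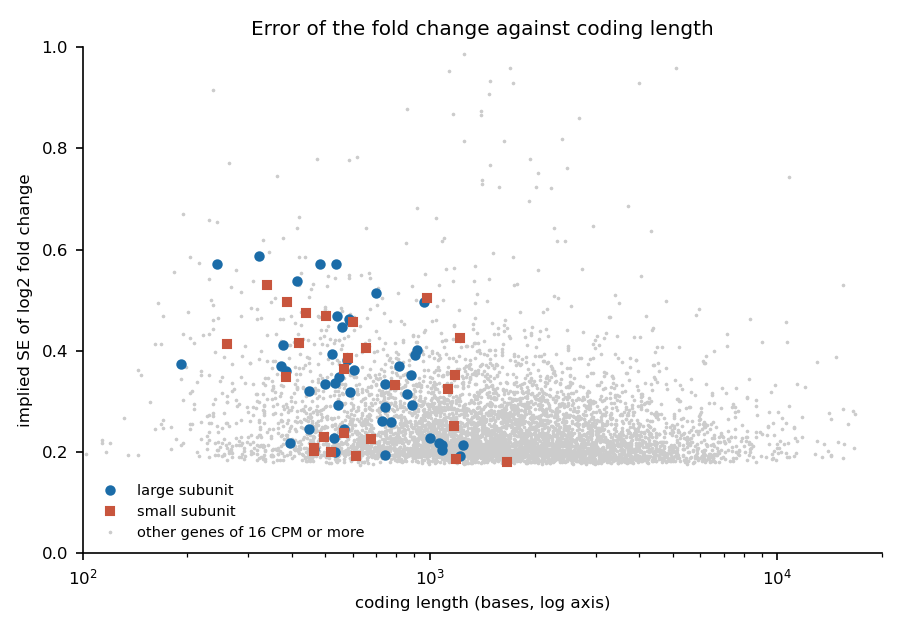
Implied SE of the log2 fold change (vertical axis) against coding length in bases (horizontal log axis) for large-subunit genes, small-subunit genes and the other genes averaging 16 CPM or more. The members lie between 0.18 and 0.59, and the 41 members shorter than 600 bases have a median of 0.37 against 0.30 for the longer ones; a few other genes lie above the upper end of the axis.

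Close neighbours on the opposite strand were frequent among the members, by the Ensembl annotation, which may not be the one the authors used. An opposite-strand coding gene started within 1000 bases upstream of the member's own start, or overlapped it by up to 100 bases, in 56 of 73 members (76.7%). The share was 51.6% for other coding genes of 16 CPM or more and 60.0% for 90 cytosolic ribosomal protein genes. Large and small subunit were alike, at 76.6% and 76.9%. At least 1 opposite-strand coding gene overlapped 42 of the 73 members (57.5%), against 38.8% of other coding genes of 16 CPM or more. In 40 members (54.8%) the 3' end of such a neighbour lay inside the member, against 33.3%. On the same strand the order was the other way, with an overlapping coding gene in 3 members (4.11%) against 10.4%. These shares are descriptions, with no test. No source used here says whether counting used the strand, so for the overlapped members reads of the neighbour cannot be told apart with certainty.

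The divergent neighbours held no called gene either. For 55 of the 56 a row was found, of which 0 were called and 0 were under an unadjusted edgeR p of 0.05, per the authors' deposited table. Of the 55, 47 averaged 16 CPM or more, a level at which 1.38% and 3.66% of genes were so. An absence of calls in so few genes is close to these shares. Among the divergent neighbours were genes of other mitochondrial functions. ATPsyn-d, a subunit of the ATP synthase, starts next to mRpL55 and had a log2 change of -0.06 ± 0.54 per the authors' deposited table. HtrA2, a mitochondrial protease, starts next to mRpL11 and had -0.00 ± 0.21 there. CG6455, named Mitofilin in the annotation, starts next to mRpL35 and had -0.13 ± 0.19 per the authors' deposited table.

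No common direction of members and partners was seen, but these values cannot decide whether there is one. The members' median size of change was 0.09 against a median implied SE of 0.35, so a shared direction could have gone unseen. The sign was shared in 27 of 55 pairs, and Pearson's r between their log2 fold changes was 0.01 across the pairs, with Spearman's rho of -0.01. The pairs share the same libraries and genes are not independent replicates, so both are descriptions. The widest partner values were 1.69 ± 1.56 for HLH4C, next to mRpL30 and scarce at 0.144 CPM, and -0.54 ± 0.92 for CG4440, next to mRpL4, per the authors' deposited table. These neighbours were named after their values were seen.

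**Figure D5:**
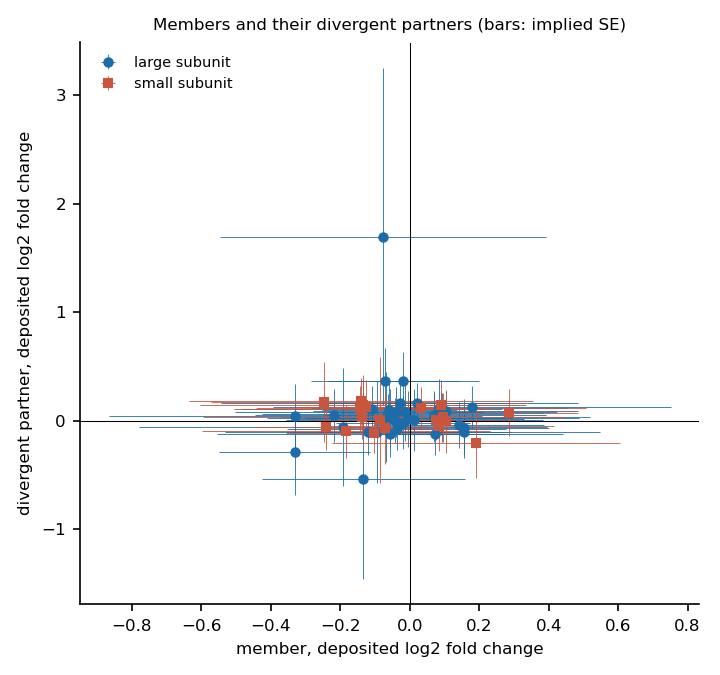
Deposited log2 fold change of each divergent partner (vertical axis) against that of its member (horizontal axis) for 55 pairs, with bars of 1 implied SE. The points lie around 0 on both axes with no slope (Pearson's r 0.01), and the partner far above the rest is HLH4C at 1.69 with an implied SE of 1.56.

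The members were spread over all the large chromosome arms, and differences from the shares of all coding genes were not tested. The X chromosome held 11 (15.1%, against 15.8% of all coding genes in the table), and the arm 3R held the most, 21 (28.8% against 24.7%). Arm 3L held 17 (23.3% against 19.7%), 2R held 12 (16.4% against 20.7%) and 2L held 12 (16.4% against 18.5%). The median log2 fold change was -0.07 for the members on X and -0.02 for those on 3R per the authors' deposited table.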

How the data were processed

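RNA of 6 samples was sequenced by the authors, and the submitters' processing notes name FastQC, Bowtie and TopHat. Not given in the sources used here are their versions, the genome build, the counter and any use of strand. Polyadenylated RNA was selected per the labels' descriptions, while their protocols name a stranded total RNA kit. Per the file headers, the deposited table comes from glmLRT of edgeR. Its log2 fold change is the authors' fitted difference between groups. The deposited average log2 CPM covers all libraries of the fit. The deposited LR column is a score, a chi-square statistic with 1 degree of freedom. From it the deposited p-value and its Benjamini-Hochberg value over all rows were recomputed, with largest differences of 6.38e-15 and 3.55e-15. No column holds a value per sample, so nothing was refitted.

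The implied SE treats the test as a Wald test. It was also computed on simulated counts with a single known dispersion. The outcome is not reported here, so its accuracy for these data is not shown. Computation used pandas 2.3.3 and scipy 1.17.1. Symbols were matched to Ensembl release 115 for 14707 of 14862 genes (99.0%), and for all 73 members; level per length uses the longest coding sequence, without untranslated regions. No sequences are shown.

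The members, gene lists, roles and origin classes were chosen with earlier results of these data known. Roles and origin come from textbook knowledge of bacterial and mammalian ribosomes. The named members are, per subunit, the 4 largest changes on each side, the 4 smallest p-values, the 3 highest and 3 lowest levels per length, and those of listed roles; other lists give up to 2 genes by p. EfTuM, CG33155 and the neighbouring genes were named after their values were seen. Members not named are covered by the ranges and counts.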

Additional observations from a re-analysis of the deposited data

How the results depend on the processing

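The count of 0 called members could only stay 0 at an adjusted p under 0.01 or with a 2-fold minimum, which are stricter. An adjusted p is never below the unadjusted one, whose smallest value among the members was 0.129 (edgeR). Adjusting over the 8732 genes of 1 CPM or more, or the 6398 of 16 CPM or more, could therefore also only give 0 calls. The members' smallest adjusted p was then 0.962 and 1.00. At an unadjusted edgeR p under 0.1 the count was also 0, beside 5.39% of genes of 16 CPM or more. Over the alternatives the large-subunit centre lay between -0.04 and -0.02 and the small-subunit centre between -0.05 and -0.02 on the log2 scale. The difference between the subunits lay between -0.01 and 0.03, and its sign turned when members were weighted by 1 over the squared implied SE; the cause was not tested. No member shared both average and fold change exactly with another row, and all averaged 16 CPM or more, so those alternatives left the medians as they were. As geometric means the levels were 62.0 CPM per kb in the large and 68.8 CPM per kb in the small subunit, and without division by length the medians were 39.5 and 40.1 CPM. No paired analysis was possible because the table holds no value per sample, and for the same reason no replicate could be left out. Sizes of single libraries are not given, and the part of depth in the errors was not tested.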

Other observations

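Of the genes that overlap a member on the opposite strand, 3 had an unadjusted edgeR p under 0.05, and none of these 3 passed the adjusted threshold. Such overlaps were found for 42 of the 73 members. Over all genes, 1488 of 14862 had an unadjusted edgeR p under 0.05 per the authors' deposited table. An excess among the overlapping genes was not tested, and the 3 were picked by their p. Zip71B, a zinc transporter gene whose end meets that of mRpL39, had a log2 change of -1.21 ± 0.47 (implied SE) per the authors' deposited table. Its unadjusted edgeR p was 9.88e-03 and its adjusted p 0.162. wtrw (water witch), a channel gene of the TRP family that overlaps mRpS9, had 0.44 ± 0.22 with an unadjusted edgeR p of 0.0455 and an adjusted p of 0.466 per the authors' deposited table. CG34263, which overlaps mRpL17, had -3.59 ± 1.51 at an average of 0.178 CPM, with an unadjusted edgeR p of 0.0177 and an adjusted p of 0.247 per the authors' deposited table. The members on the other strand had -0.22 ± 0.23 for mRpL39, 0.02 ± 0.19 for mRpS9 and -0.01 ± 0.23 for mRpL17. Zip71B and wtrw averaged 7.71 and 12.5 CPM, and all 3 genes were named after their values were seen.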
